A study of Bos taurus with 24 samples.

Results

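The genes described here are 9 genes of nuclear speckles and of the kinases that control splicing: CCNL1, CCNL2, CLK1, CLK4, PNISR, RSRC2, DDX5, LUC7L3 and SON. They were taken by symbol from the platform annotation, with the brightest array feature kept for each gene, out of 18444 named genes on the array. Each of the 9 had 1 feature, and all 9 were among the 14198 genes that passed the filter on dim genes. The choice was made partly because several of them showed the most consistent decreases at biopsy 2 in these same arrays. The difference between biopsies is therefore given for them as a description, with no test. Comparisons of gain class and the co-variation among cows were not used directly for the choice. The spread within groups is not independent of it, since how consistent a decrease is also depends on the spread. The same holds for the gain difference of the changes and for correlations of the change, which use the same changes per cow.

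Nuclear speckles are bodies in the cell nucleus that store and modify splicing factors, many of which carry long stretches of alternating arginine and serine. Kinases of the CLK family phosphorylate these stretches, which releases the factors from speckles to sites of transcription. L-type cyclins bind the kinase CDK11 and take part in splicing of nascent transcripts. Transcripts of CLK1, CLK4 and several speckle proteins are known in human and mouse cells to be partly held back in the nucleus with retained introns, so their mature level can change quickly.

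The study measured RNA of the gluteus medius, a hindquarter muscle, in crossbred beef cows sampled by biopsy needle. Of 121 cows in a feeding trial, 12 were profiled, 6 with the highest and 6 with the lowest gain during free feeding. Each cow gave 2 biopsies, so the 24 arrays formed 4 groups of 6: biopsy 2 of high gain cows, biopsy 2 of low gain cows, biopsy 1 of high gain cows and biopsy 1 of low gain cows. The protocol describes a first sampling on day 105 of a 112-day restricted diet (120 kcal of metabolizable energy per kg of body weight to the power 0.75) and a later one on day 49 of 112 days with feed offered freely, and the biopsy numbers are read here in that order.

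Values are log2 signals. Their upper limit differed between the biopsies, at 19.93 for biopsy 2 and 19.81 for biopsy 1, which points to separate normalization. The labels name no processing set, and biopsy number and any such set cannot be told apart. Levels compared between biopsies were quantile-normalized over all 24 arrays, and gain classes were compared on the values as deposited. None of the 9 genes reached the upper limit of the scale, their highest deposited value being 17.2 for LUC7L3. There were 2 arrays that stood apart in their tissue markers. On the biopsy 1 array of low gain cow 4 skeletal muscle actin ACTA1 read 14.5 where all other cows read 19.75 or more at that biopsy, and the adipocyte hormone ADIPOQ read 18.0. On the biopsy 2 array of high gain cow 4 ADIPOQ read 18.2, above the other biopsy 2 arrays at 8.37 to 15.9. Results that rest on these 2 cows are given with and without them. In a bulk biopsy, fewer cells of a type and less RNA per cell cannot be told apart.

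All 9 genes had a lower mean at biopsy 2 than at biopsy 1 in both gain classes. The log2 change, biopsy 2 minus biopsy 1 averaged over 12 cows, was between -1.75 and -0.41, with a median of -1.46, while the median over all 14198 tested genes was 0.02. In 6 genes (CCNL1, CLK4, PNISR, RSRC2, DDX5 and LUC7L3) the level was lower at biopsy 2 in 12 of 12 cows, which held for 5.56% of all tested genes. In 5 genes (CCNL1, CLK4, PNISR, RSRC2 and LUC7L3) every biopsy 2 array lay below every biopsy 1 array, which held for 1.34% of all tested genes. Over all tested genes limma called 38.1% different at an adjusted p under 0.05, 17.4% lower and 20.8% higher at biopsy 2, and 47.5% had an unadjusted p under 0.05. Since the genes were chosen on this contrast, nothing is read from these shares.

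**Figure D1:**
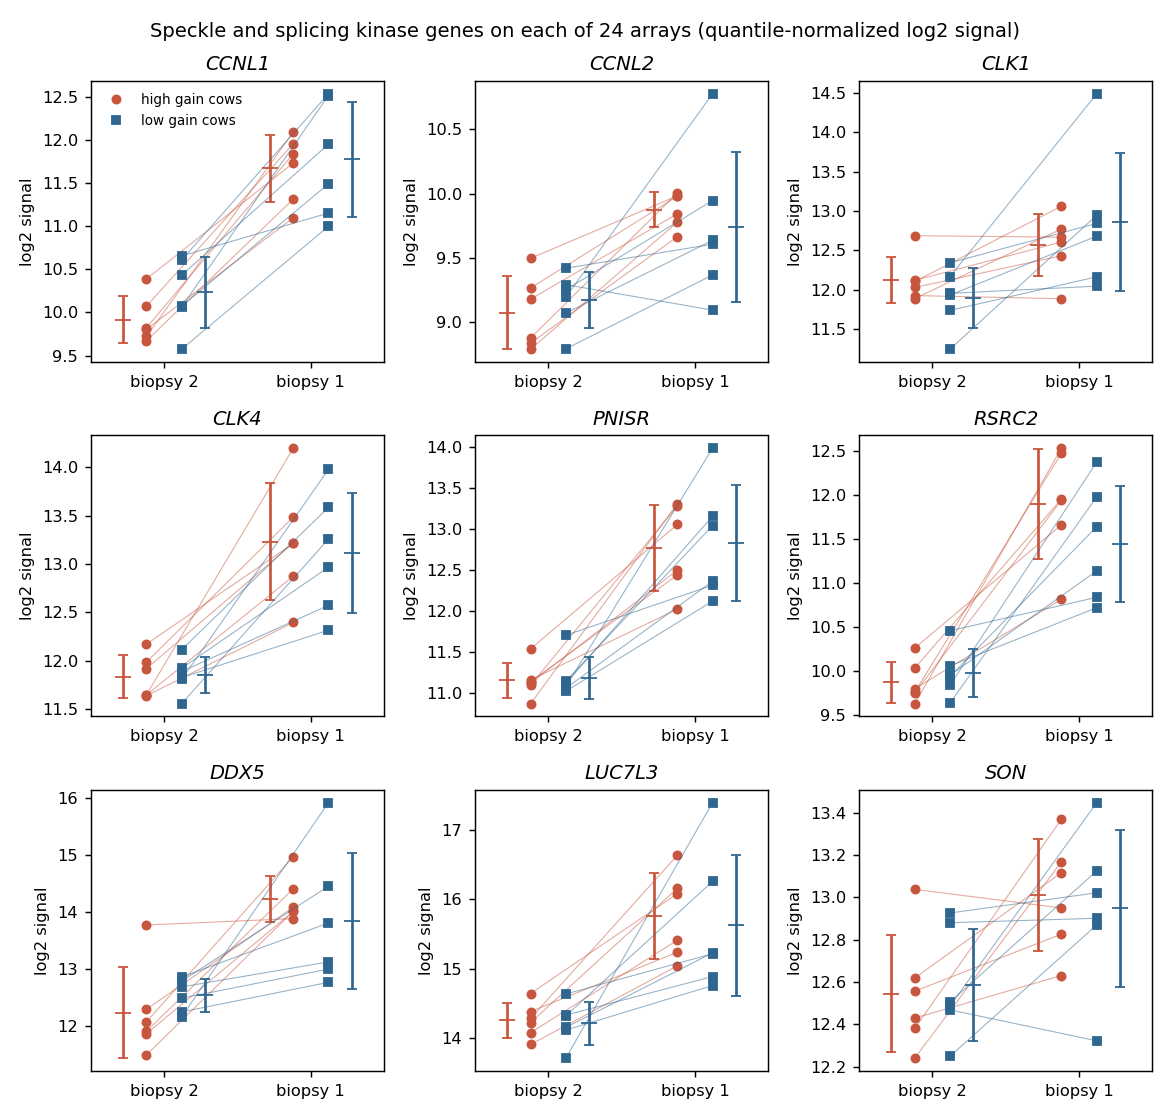
Quantile-normalized log2 signal of the 9 genes on each of 24 arrays, biopsy 2 on the left and biopsy 1 on the right of each panel. Points are arrays (circles, high gain cows; squares, low gain cows), lines join the 2 arrays of a cow, and bars show the mean ± SD of 6 cows; in CCNL1, CLK4, PNISR, RSRC2 and LUC7L3 the 2 biopsies do not overlap.

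CCNL1 encodes cyclin L1, a cyclin that binds CDK11 and sits in nuclear speckles. Its lowest, median and highest log2 levels were 9.57, 10.07 and 10.65 over the 12 biopsy 2 arrays, against 11.00, 11.78 and 12.53 over the 12 biopsy 1 arrays. Group means at biopsy 2 were 9.91 ± 0.27 in high gain and 10.23 ± 0.41 in low gain cows, against 11.67 ± 0.39 and 11.77 ± 0.67 at biopsy 1 (SD, n = 6 each). The biopsies did not overlap, and the change of -1.65 ± 0.16 (limma's standard error, n = 12 cows) put the biopsy 2 level at 31.9% of the biopsy 1 level. The value nearest 0, -0.50, was in low gain cow 3, and the most negative, -2.45, in low gain cow 1.

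CCNL2 encodes cyclin L2, the paralog of cyclin L1 with the same partner kinase. Its levels were 8.79, 9.19 and 9.50 (lowest, median, highest) at biopsy 2, against 9.10, 9.81 and 10.78 at biopsy 1. Here the biopsies overlapped: 7 biopsy 2 arrays lay at or above the lowest biopsy 1 array, and 11 of 12 cows were lower at biopsy 2. The change was -0.68 ± 0.13, and in 11 of 12 cows the change of CCNL1 was more negative than that of CCNL2. The most negative CCNL2 value, -1.58, was in low gain cow 4, and without that cow the change was -0.58.

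CLK4 and CLK1 encode dual-specificity kinases that phosphorylate serine- and arginine-rich splicing factors. CLK4 read 11.56, 11.86 and 12.17 at biopsy 2 against 12.32, 13.21 and 14.19 at biopsy 1, with no overlap and a change of -1.32 ± 0.18. CLK1 read 11.24, 11.99 and 12.69 at biopsy 2 against 11.88, 12.67 and 14.49 at biopsy 1, and 10 biopsy 2 arrays lay at or above the lowest biopsy 1 array. The change of CLK1 was -0.71 ± 0.19, with 10 of 12 cows lower, or 9 of 12 with the values as deposited. High gain cows 4 and 6 were not lower in CLK1 (0.02 and 0.04), and low gain cow 4, whose biopsy 1 array stood apart, had the most negative value (-2.33). The change of CLK4 was more negative than that of CLK1 in 10 of 12 cows. Leaving out low gain cow 4 and high gain cow 4, the changes were -1.27 for CLK4 and -0.62 for CLK1.

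PNISR encodes a serine- and arginine-rich protein that binds the speckle protein pinin. It read 10.87, 11.12 and 11.70 at biopsy 2 against 12.02, 12.77 and 13.98 at biopsy 1. Its change was -1.63 ± 0.20, or -1.61 ± 0.28 in the high gain and -1.64 ± 0.28 in the low gain cows. The most negative values were -2.90 in low gain cow 4 and -2.43 in high gain cow 4. Without both cows the change was -1.42. RSRC2, named for its arginine- and serine-rich coiled-coil protein, had the most negative change of the 9, -1.75 ± 0.22. Its levels were 9.63, 9.89 and 10.46 at biopsy 2 against 10.72, 11.80 and 12.53 at biopsy 1. Neither gene's biopsies overlapped. In RSRC2 the mean change was -2.03 ± 0.31 in the 6 high gain cows and -1.47 ± 0.31 in the 6 low gain cows.

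DDX5 encodes the RNA helicase p68, which takes part in splicing and is a coactivator of the myogenic factor MYOD in mouse muscle cells. It read 11.49, 12.27 and 13.77 at biopsy 2, against 12.76, 14.0 and 15.91 at biopsy 1. All 12 cows were lower at biopsy 2 (11 of 12 with the values as deposited), but the biopsies overlapped: 3 biopsy 2 arrays, high gain cow 4 the highest of them at 13.77, lay at or above the lowest biopsy 1 array. Its change of -1.65 ± 0.30 had the widest error of the 9 genes. The per-cow values extended from -0.11 in high gain cow 4 to -3.75 in low gain cow 4, the cows whose arrays stood apart. Without both cows the change was -1.59.

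LUC7L3 encodes a LUC7-like protein, a family that in yeast belongs to the U1 small nuclear ribonucleoprotein, which recognises the 5′ splice site. It read 13.71, 14.25 and 14.64 at biopsy 2, against 14.76, 15.32 and 17.40 at biopsy 1, with no overlap. Its change was -1.46 ± 0.26, and -1.24 without low gain cow 4 and high gain cow 4. SON encodes a large scaffold protein at the core of speckles and had the smallest change, -0.41 ± 0.15. It read 12.24, 12.50 and 13.04 at biopsy 2 against 12.32, 12.99 and 13.45 at biopsy 1. Its biopsies overlapped in 10 biopsy 2 arrays. High gain cow 3 (0.09) and low gain cow 2 (0.15) were not lower in SON, and with the values as deposited its change was -0.22, with 8 of 12 cows lower.

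Ranked among all 14198 tested genes from the most negative change, RSRC2 was at place 6, DDX5 at 8, CCNL1 at 9 and PNISR at 10. LUC7L3 followed at 22 and CLK4 at 32, while CLK1 was at 466, CCNL2 at 509 and SON at 1764. As a percent of the ranking, CCNL1 lay at 0.06% and CCNL2 at 3.59%, and CLK4 at 0.23% and CLK1 at 3.28%. The speckle scaffold SON lay outside the first 10% (12.4%). These places describe the choice of genes as well as the data. Per cow, the median change of the 9 genes was between -2.33 in low gain cow 4 and -0.50 in low gain cow 3, and between 7 and 9 of the 9 genes were lower in each cow. The median change over all tested genes stayed between -0.04 and 0.04 in the same cows.

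**Figure D2:**
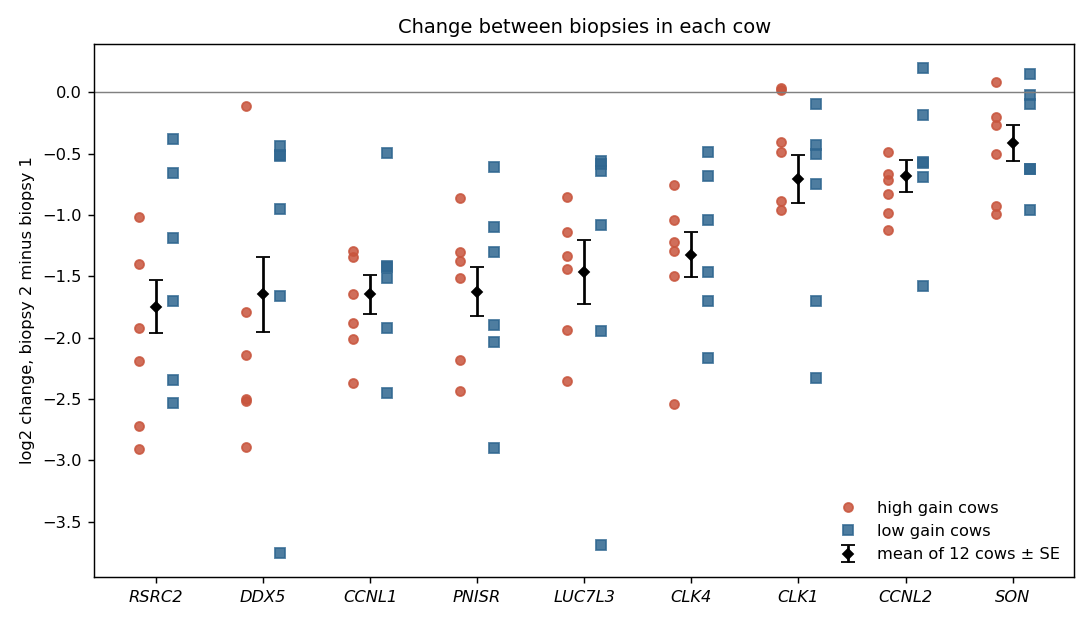
Log2 change, biopsy 2 minus biopsy 1, of each gene in each cow (circles, high gain cows; squares, low gain cows), with the mean of 12 cows ± limma's standard error as a diamond, genes ordered from the most to the least negative mean. In RSRC2, DDX5, CCNL1, PNISR, LUC7L3 and CLK4 all 12 cows lie below 0, and DDX5 has the widest scatter.

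The comparison of gain classes asked whether the level of these transcripts in muscle differed between cows that later gained much or little. At biopsy 1, on the values as deposited, RSRC2 averaged 11.86 ± 0.65 in high gain and 11.30 ± 0.65 in low gain cows (SD, n = 6 each), the largest difference of the 9 at 0.56 (95% interval -0.21 to 1.33). DDX5 averaged 14.20 ± 0.44 in high gain and 13.69 ± 1.11 in low gain cows, a difference of 0.51 (-0.49 to 1.51). The ranges of the classes overlapped in both genes. No gene of the 9 passed limma's test at biopsy 1, where adjusted p lay between 0.955 and 0.995 and no unadjusted p was under 0.05. Of all tested genes 0% passed and 5.04% had an unadjusted p under 0.05. The differences of the 9 extended from -0.19 in CLK1 to 0.56 in RSRC2. In CCNL1, CLK1, PNISR and LUC7L3 the sign depended on the scaling and the cows used. In CCNL2, CLK4, RSRC2, DDX5 and SON it stayed positive under every alternative run, though the size varied. Leaving out both cows that stood apart, the difference of DDX5 was 0.96 (limma adjusted p = 0.586), that of RSRC2 0.75 and that of CLK1 0.09.

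At biopsy 2 CCNL1, DDX5 and CLK1 had the differences farthest from 0. CCNL1 averaged 9.98 ± 0.26 in high gain and 10.30 ± 0.42 in low gain cows (SD, n = 6 each), a difference of -0.32 (95% interval -0.74 to 0.11), and CLK1 averaged 12.22 ± 0.31 in high gain and 11.98 ± 0.38 in low gain cows, a difference of 0.24 (-0.20 to 0.68). DDX5 averaged 12.32 ± 0.85 in high gain and 12.63 ± 0.28 in low gain cows, a difference of -0.31 (-1.03 to 0.41). Leaving out low gain cow 4 and high gain cow 4, the differences were -0.24 for CCNL1, 0.17 for CLK1 and -0.71 for DDX5 (limma adjusted p = 0.866 for DDX5). With all cows, CLK4, PNISR, LUC7L3 and SON differed between the classes by 0.05 or less in size. None of the 9 passed limma's test (adjusted p of 1 for each) and none had an unadjusted p under 0.05, against 0% and 2.35% of all tested genes. When both biopsies of a cow were averaged, again 0% of all genes passed, 3.7% had an unadjusted p under 0.05, and no gene of the 9 had either. There the widest intervals reached from -0.59 in CCNL1 to 0.68 in DDX5, so differences beyond about that size lay outside every interval.

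The difference of the changes, high gain minus low gain, addressed whether cows of the classes differed in their response between samplings. A shift that is the same for all arrays of a set cancels in it. The estimates were 0.52 for CLK1 (95% interval -0.31 to 1.36), -0.69 for DDX5 (-1.99 to 0.62) and -0.56 for RSRC2 (-1.49 to 0.38). In the other 6 genes they lay between -0.23 in CCNL2 and 0.03 in PNISR. None passed limma's test (adjusted p of 1.00 for each, smallest unadjusted p = 0.202), and 0% of all tested genes passed, with 3.61% at an unadjusted p under 0.05. With low gain cow 4 and high gain cow 4 left out, the estimate for CLK1 was 0.16, that for DDX5 -1.55 (limma adjusted p = 0.471) and that for RSRC2 -0.90 (limma adjusted p = 0.509), and the other 6 lay between -0.56 in LUC7L3 and -0.06 in PNISR. Without low gain cow 4 alone CLK1 was at 0.25. These intervals are wide, and a p above the threshold does not show that the classes changed alike.

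**Figure D3:**
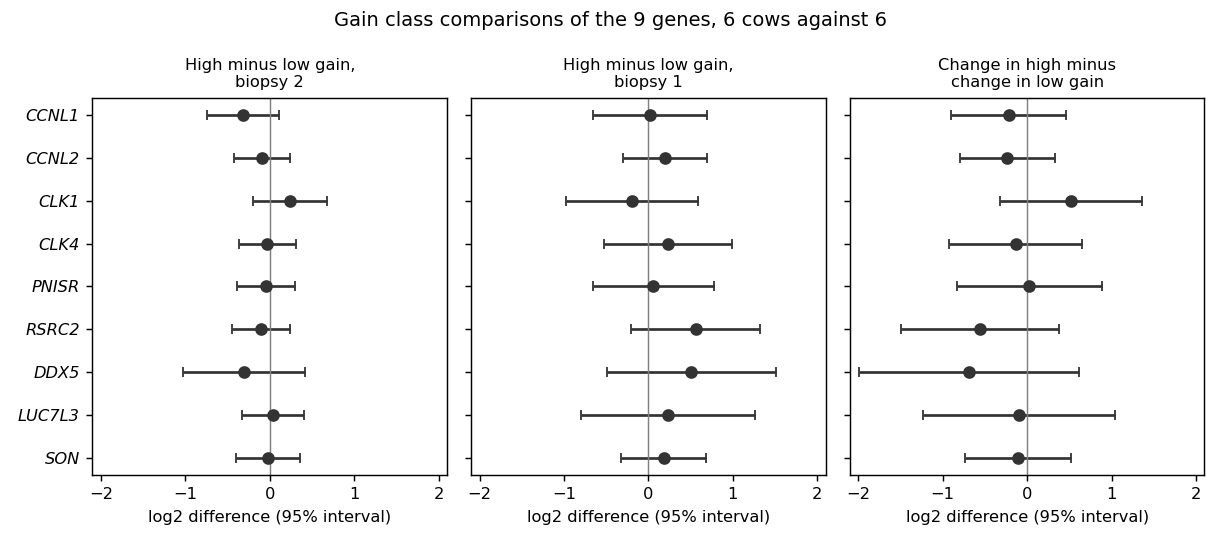
Log2 differences between gain classes for the 9 genes with 95% intervals from limma: high minus low gain at biopsy 2, high minus low gain at biopsy 1, and the change in high gain minus the change in low gain cows (6 cows against 6 each). Every interval includes 0, and the intervals at biopsy 1 are wider than those at biopsy 2.

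The 9 genes differed in how much they varied among cows of a group. The SD within groups was lower at biopsy 2 than at biopsy 1 in 9 of 9 genes, and in 67.8% of all tested genes. In LUC7L3 it was 0.27 at biopsy 2 against 0.85 at biopsy 1, in CLK4 0.23 against 0.60, in RSRC2 0.27 against 0.65 and in SON 0.28 against 0.31. The median ratio of the 2 SDs, biopsy 2 over biopsy 1, was 0.54 in the 9 genes and 0.81 in all tested genes. With the same 2 cows left out it was 0.50 in the 9 genes and 0.87 in all tested genes, so the median ratio was as low without those 2 cows. Single genes moved both ways: the ratio went from 0.66 to 0.84 in CCNL2, from 0.54 to 0.63 in CLK1 and from 0.74 to 0.49 in DDX5. No test was made of this difference, and the spread is not independent of the choice of the genes.

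Within groups the genes varied together. Over deviations from the group means, Pearson's r between pairs of the 9 genes on the 12 biopsy 1 arrays was 0.54 to 0.93 with a median of 0.70, and all 36 pairs were above 0. On the 12 biopsy 2 arrays r was -0.41 to 0.71 with a median of 0.26, and 30 of 36 pairs were above 0. The median over all pairs of tested genes was 0.00 in each set. CLK4 and RSRC2 had r = 0.91 at biopsy 1 and 0.64 at biopsy 2, and CCNL2 and CLK1 0.93 and 0.46. PNISR and CCNL2 had r = 0.77 at biopsy 1 and -0.41 at biopsy 2. Without low gain cow 4 and high gain cow 4 the median r was 0.71 at biopsy 1 and 0.34 at biopsy 2. These values are descriptions: the arrays of a cow share an animal, and the arrays of a biopsy may share their processing.

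**Figure D4:**
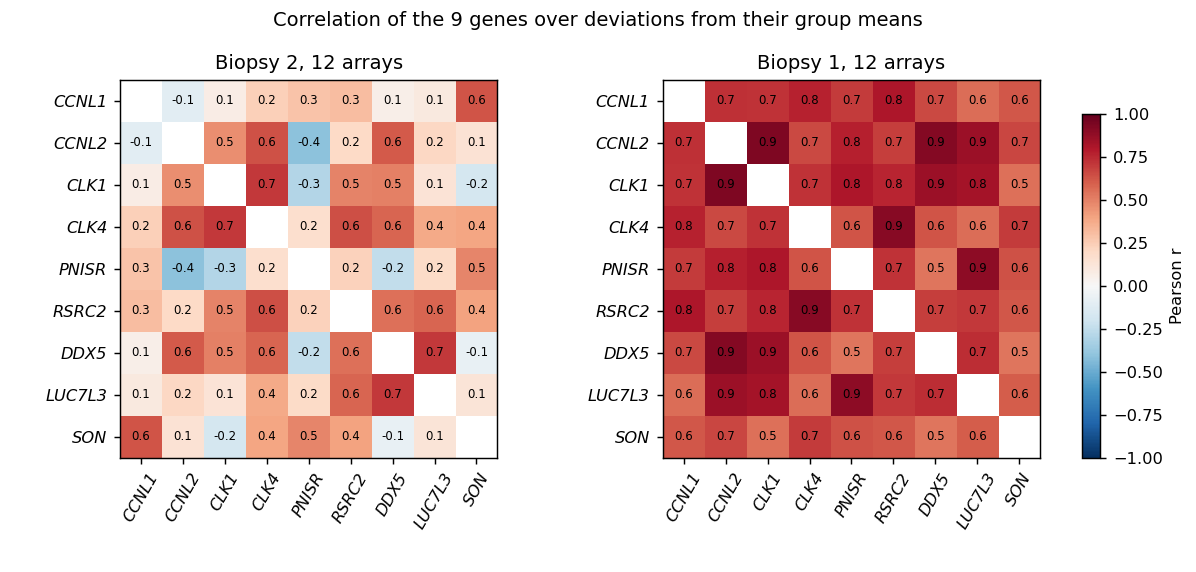
Pearson correlation between each pair of the 9 genes over deviations from the group means, on the 12 biopsy 2 arrays (left) and the 12 biopsy 1 arrays (right), with colour from -1 (blue) to 1 (red). At biopsy 1 all 36 pairs are above 0, with a median of 0.70, and at biopsy 2 30 pairs are, with a median of 0.26.

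The paralog pairs were tested across the 12 cows at each biopsy and for the change, 6 relations in all, on quantile-normalized levels. CCNL1 and CCNL2 correlated at biopsy 1 (Pearson's r = 0.73, permutation p = 0.00381, adjusted p = 0.0144; Spearman's rho = 0.66, permutation p = 0.0226, adjusted p = 0.0453). They did not pass at biopsy 2 (r = -0.03, permutation p = 0.929, adjusted p = 0.929; rho = -0.07, permutation p = 0.838) or for the change (r = 0.32, permutation p = 0.307, adjusted p = 0.368; rho = 0.22, permutation p = 0.485). CLK1 and CLK4 correlated at biopsy 1 (r = 0.71, permutation p = 0.00479, adjusted p = 0.0144; rho = 0.72, permutation p = 0.0106, adjusted p = 0.0319). They also did for the change (r = 0.71, permutation p = 0.00952, adjusted p = 0.0190; rho = 0.80, permutation p = 0.0025, adjusted p = 0.0150). At biopsy 2 their r was 0.66 (permutation p = 0.0159, adjusted p = 0.0239) and rho 0.61 (permutation p = 0.0404, adjusted p = 0.0606). When the 2 cows farthest from the median of the first gene were left out, the Pearson r values of the 4 relations that had passed were 0.49, 0.64, 0.20 and 0.69, and none passed (permutation, adjusted p of 0.294, 0.132, 0.583 and 0.115), so all 4 calls were lost with 10 cows. The r of CLK1 with CLK4 at biopsy 2 was the one that moved most, and their r at biopsy 1 and for the change stayed within 0.1 of the value over 12 cows. The 12 cows were of 2 gain classes, and with deviations from the class means the same 4 relations passed. The tests asked only whether a pair correlated at all. Over deviations from the group means, the median r of all 36 pairs of the genes described here was 0.70 at biopsy 1. There CCNL1 with CCNL2 had 0.73 and CLK1 with CLK4 0.72, close to that median. At biopsy 2 the median was 0.26, and the same pairs had -0.10 and 0.71. Whether paralogs were more alike than other pairs was not tested.

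Outside the 9 genes, those whose deviations from the group means were most like the mean of the 9 (each gene standardised, 24 arrays) were SFPQ, a splicing factor of paraspeckles, with r = 0.93, SF3B1, a core protein of the U2 small nuclear ribonucleoprotein, with r = 0.92, and TRA2B, a splicing regulator with arginine- and serine-rich ends, with r = 0.91. The nucleolar chaperone NPM1, the ubiquitin ligases MYCBP2 and ITCH, the RNA polymerase I factor TAF1D and the transcription factor ELK4 followed at 0.89 to 0.90. These measures did not use the group means. In the 20 arrays of the other 10 cows SF3B1 (0.96), SFPQ (0.92) and TRA2B (0.92) were still the first 3, and TAF1D moved to place 17. Of the single genes, LUC7L3 was most like PNN, which encodes pinin, with r = 0.96 (0.93 without the 2 cows), CLK4 most like TRA2B with 0.90, RSRC2 most like the cohesin loader gene NIPBL with 0.88, PNISR most like the chromatin remodeller gene RSF1 with 0.88 and CLK1 most like MYCBP2 with 0.91. DDX5 was most like the lipid receptor gene S1PR1 with 0.93, or 0.77 without the 2 cows. CCNL2 was most like TAF1D (0.87, 0.72 without the 2 cows), CCNL1 like EVI5 (0.78) and SON like PRPF38A (0.77), a spliceosome gene. All of these are descriptions over arrays that share cows and sets.

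Markers of other cells moved with the 9 genes within groups, and their part in the results was not tested. The mean standardised deviation of the 9 genes had r = 0.73 with the mean level of 5 fibroblast markers, 0.67 with 4 endothelial, 0.63 with 5 macrophage and leukocyte and 0.58 with 5 adipocyte markers, and -0.60 with 8 muscle fibre markers (24 arrays). Leaving those 2 cows out, these were 0.60, 0.45, 0.47, 0.43 and -0.27. The r with 4 red blood cell markers was -0.26, or -0.52 without the 2 cows, with 2 satellite cell markers -0.29, or -0.33, and with 2 Schwann cell and nerve markers 0.18, or -0.12. Of the 2 satellite cell markers MYF5 read only 4.79 to 5.70 and did not pass the filter on dim genes. The mean level of the fibroblast markers was 10.2 to 13.4 in high gain and 10.1 to 12.2 in low gain cows at biopsy 2, against 9.37 to 12.1 and 9.28 to 13.4 at biopsy 1. Adipocyte markers were at 7.70 to 17.2 and 8.72 to 14.4 at biopsy 2, against 8.27 to 13.3 and 8.65 to 16.1 at biopsy 1. Endothelial markers were at 10.03 to 12.3 and 10.3 to 11.0 at biopsy 2, against 10.3 to 11.4 and 9.58 to 13.4 at biopsy 1, and macrophage and leukocyte markers at 7.41 to 8.42 and 7.61 to 8.14 against 7.56 to 8.16 and 7.34 to 8.49. Muscle fibre markers were at 19.29 to 19.87 and 19.72 to 19.87 at biopsy 2, against 19.686 to 19.796 and 15.20 to 19.81 at biopsy 1, close to the scale's upper limit on most arrays. No marker was at 0. Red blood cell markers were at 7.22 to 8.65 and 7.45 to 8.86 at biopsy 2, against 7.11 to 8.66 and 7.20 to 8.33 at biopsy 1. Between biopsies none of the muscle fibre, adipocyte, fibroblast, endothelial or red blood cell markers passed limma's test. The muscle fibre markers ACTA1, TTN and MYBPC1 read 19.93, the upper limit, on every biopsy 2 array. For them the missing call cannot show that the level was unchanged. Of 5 macrophage and leukocyte markers 2 fell and 2 rose, against 17.4% lower and 20.8% higher among all tested genes. A rise was also called for the 1 tested satellite cell marker, while among 2 markers of Schwann cells and nerve 1 rose.

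Other genes of splicing, which were not used to choose the 9, were compared between biopsies with the same limma fit. Of 108 tested genes in 6 lists, 41 fell (38%) and 14 rose (13%), against 17.4% lower and 20.8% higher among all tested genes. With the values as deposited 28 fell and 19 rose. The lists were drawn up with results of these arrays in view. The list of speckle and arginine- and serine-rich proteins had the most decreases: 20 of 34 genes fell (58.8%) and 2 rose (5.88%), with a median change of -0.54. With the values as deposited 16 fell and 3 rose, and without low gain cow 4 and high gain cow 4 22 fell and 2 rose. RSRP1, another arginine- and serine-rich protein gene, fell by 1.54 on the log2 scale (SE 0.16, adjusted p = 2.1e-05), lower in 12 of 12 cows and with no overlap between biopsies. PNN, the partner of PNISR, fell by 1.51 (SE 0.24, adjusted p = 0.000388), also in 12 of 12 cows with no overlap. ARGLU1 fell by 1.25 (SE 0.27, adjusted p = 0.00317) in 12 of 12 cows, or by 0.99 without the 2 cows. On the other side RNPS1, a splicing activator that joins the exon junction complex, rose by 0.86 (SE 0.12) in 12 of 12 cows, and SCAF1 rose by 0.38 (SE 0.08) in 10 of 12. SRRM2, which with SON forms the core of speckles, was chosen after its values were seen: its change was -0.16 ± 0.19 (limma adjusted p = 0.532).

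In the CLK, SRPK and DYRK kinases 1 of 11 tested genes fell (9.09%) and 3 rose (27.3%), against 17.4% lower and 20.8% higher among all tested genes. Without low gain cow 4 and high gain cow 4, 2 fell and 3 rose. PRPF4B, a kinase of the spliceosome, fell by 0.79 (SE 0.15) in 12 of 12 cows with no overlap between biopsies. SRPK3, the muscle-specific kinase of serine- and arginine-rich proteins, rose by 0.97 (SE 0.27) in 10 of 12 cows, and HIPK1 rose by 0.56 (SE 0.13) in 11 of 12. CLK3 and SRPK1, chosen after their values were seen, had changes of 0.05 ± 0.12 and 0.00 ± 0.13 and did not pass (limma adjusted p of 0.747 and 0.982). CLK2 was not analysed here. In the cyclins and kinases of the transcription cycle 4 of 14 genes fell (28.6%) and 2 rose (14.3%). Whether the shares of these lists differ from those of all tested genes was not tested. With the values as deposited 1 fell and 3 rose, and 1 rose without low gain cow 4 and high gain cow 4. The count of 2 included CDK10 (0.15), which lost its call when any single cow other than low gain cow 2 or low gain cow 4 was left out. CDK13 fell by 0.52 (SE 0.12) and CCNK, the cyclin of CDK12 and CDK13, rose by 0.52 (SE 0.13), each in 11 of 12 cows. CDK11B, a partner of the L-type cyclins, was chosen after its values were seen: its change was -0.24 ± 0.09 (limma adjusted p = 0.0566).

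Of 12 tested genes of the U1 small nuclear ribonucleoprotein and LUC7-like proteins 5 fell (41.7%) and 3 rose (25%). Among all tested genes 17.4% were lower and 20.8% higher. With the values as deposited 3 fell and 3 rose, and without high gain cow 1 again 3 fell. PRPF39 fell by 1.29 (SE 0.15) in 12 of 12 cows with no overlap, and SNRPA, which encodes an RNA-binding protein of U1, rose by 0.91 (SE 0.11) in 12 of 12 cows, also with no overlap. LUC7L2 and LUC7L, paralogs of LUC7L3 chosen after their values were seen, had changes of -0.39 ± 0.14 (limma adjusted p = 0.0463) and -0.15 ± 0.11 (adjusted p = 0.300). Of 24 RNA helicases 8 fell (33.3%) and 2 rose (8.33%), while with the values as deposited 5 fell and 5 rose. Leaving out high gain cow 2, high gain cow 5 or low gain cow 1 also gave 5 decreases. DHX15, a helicase that takes spliceosomes apart, fell by 0.82 (SE 0.18) in 10 of 12 cows, DDX3X by 0.82 (SE 0.18) and DDX42 by 0.69 (SE 0.13), each in 11 of 12. DDX17, the closest paralog of DDX5, was chosen after its values were seen and did not pass (-0.32 ± 0.22, limma adjusted p = 0.257). Of 13 factors of nonsense-mediated decay, which removes transcripts with early stop codons, 3 fell (23.1%) and 2 rose (15.4%). Whether these 3 lists differ from all tested genes was not tested. The kinase gene SMG1 fell by 0.73 (SE 0.15) and SMG5 rose by 0.97 (SE 0.20), each in 12 of 12 cows.

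**Figure D5:**
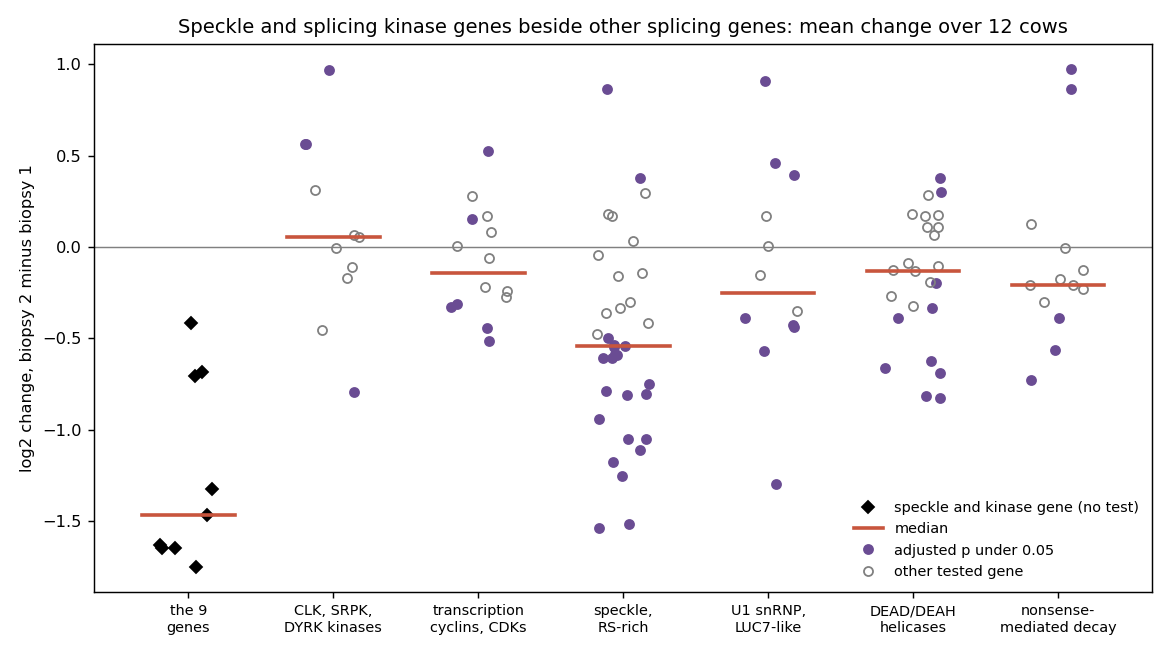
Mean log2 change over 12 cows, biopsy 2 minus biopsy 1, of the 9 genes (diamonds, no test) and of the tested genes of 6 splicing lists (filled circles, limma adjusted p under 0.05; open circles, not past it), with the median of each as a bar. The list of speckle and arginine- and serine-rich proteins has the lowest median of the 6 lists at -0.54, and the kinase list lies at 0.05.

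None of the 108 splicing genes passed in any comparison of gain. CDK10 came nearest at biopsy 1, with a high minus low gain difference of -0.41 ± 0.11 (limma adjusted p = 0.955), and in the difference of the changes, with 0.43 ± 0.11 (limma adjusted p = 1.00). At biopsy 2 SNRPG came nearest (-0.38 ± 0.15, limma adjusted p of 1), and on the average of both biopsies again CDK10 (-0.18 ± 0.09, limma adjusted p = 0.999).

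Genes that lie next to the 9 in the bovine RefSeq annotation of assembly ARS-UCD2.0 were compared in the same way. Of 18 neighbouring protein-coding genes 13 were tested, with changes between -0.29 and 0.58, and by limma none fell and 4 rose, against 17.4% lower and 20.8% higher among all tested genes. GART, beside SON, rose by 0.37 (SE 0.13), AURKAIP1, beside CCNL2, by 0.58 (SE 0.15), PPIL3, beside CLK1, by 0.34 (SE 0.10) and LEKR1, beside CCNL1, by 0.49 (SE 0.08). DONSON, on the other side of SON, was at -0.20 ± 0.10 (limma adjusted p = 0.105). The neighbour SFRS18 of PNISR, not tested, carries an older symbol of PNISR, and whether the PNISR feature also reads it was not tested. The neighbours were looked at after the values of the 9 genes were known.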

How the data were processed

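Per the submitters' processing notes, the arrays were processed with Transcriptome Analysis Console and Affymetrix Expression Console, whose versions, like the normalization, were not given in the sources used here. In their range the deposited values are those of a log scale, read here as log2. Of 26773 features 18790 were paired with 1 gene, 385 with several and 7598 with no gene. Entrez numbers served to check the symbols (18003 found, 0 changed). Genes averaging below 6.76, the 25th percentile over features, were left out. Tests used limma 3.58.1 in R 4.3.3 (lmFit, eBayes with a trend, Benjamini-Hochberg over 14198 genes, threshold 0.05). After quantile normalization over 24 arrays, the fit of the change between biopsies had cow as a fixed block, since both titles of a cow carry the same animal number. Deviations from group means correlated within cows at -0.21 to 0.35 (median 0.16). Gain classes were compared on the deposited values, 6 cows against 6. Correlations used 100000 permutations, two-sided. The naming rule took, per splicing list, up to 3 decreases and 3 increases past the threshold, 8 genes most like the mean of the 9 and 1 most like each, and list genes with the smallest p for gain; the text gives a part. The genes, lists and rules were chosen with earlier results of these data known. The fits were tested on simulated data. Of simulated log2 differences of 1, 79.1% were recovered for the change between biopsies and 32.8% for the gain difference of the changes. For gain at biopsy 1 it was 59.7%. Of differences of 0.5 the same 3 fits recovered 47.8%, 2.99% and 8.96%. In the simulation noise was independent between genes, no array stood apart and few of the 14198 genes were changed. Recovery in the real arrays can therefore differ from these rates. Alternatives covered normalization, the filter, gene rows, moderation, the block and the cows used. The number of arrays limits the precision. Neighbouring genes came from their order in RefSeq's ARS-UCD2.0 annotation; sequences were not used here.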

Additional observations from a re-analysis of the deposited data

Results flagged for a closer look

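In groups of 6 cows, 36 sets of levels and 18 sets of changes were searched for a cow far from the other 5, by Dixon's ratio of the gap to the whole range at its 95% critical value, which chance passes in about 1 of 20 groups. There were 5 such values, the levels as deposited. DDX5 read 13.94 in high gain cow 4 at biopsy 2, against 11.54 to 12.39 in the other high gain cows, and on the same array CLK1 read 12.82, against 11.98 to 12.24. The DDX5 change between biopsies was -3.75 in low gain cow 4, against -1.66 to -0.44 in the other low gain cows. These are the 2 cows whose arrays stood apart in tissue markers, and the part of the markers in these values was not tested. PNISR read 11.80 in low gain cow 3 at biopsy 2, against 11.09 to 11.27 in the other low gain cows. SON read 12.13 in low gain cow 2 at biopsy 1, against 12.76 to 13.12 in the other low gain cows.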

How the results depend on the processing

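The change of each of the 9 genes was negative under every alternative run, and their median lay between -1.52 and -1.27, or between -1.55 and -1.24 when single cows were left out. None of the 9 passed in a comparison of gain under any alternative. The count of all genes past the threshold between biopsies was 5414, of which 2465 were lower, and 3268 and 1400 when only genes above the median of all features were tested, an alternative that tests fewer genes. With the values as deposited 29.2% of the calls were lower at biopsy 2, in place of 45.5%, and all tested genes had a median of 0.12, against 0.02. With array weights 5 in place of 3 genes of nonsense-mediated decay fell. Without the replicate block the count was 5471, the splicing lists had 42 decreases and 13 increases, and CDK10 lost its call; no other named gene's call between biopsies changed, nor did any call in the gain difference of the changes, the one gain result refitted in this way. Of the splicing genes the rule named, CCNT1, CCNC and UPF3A lost their calls with the values as deposited, CCNT1 and CCNC with median centring, DYRK1B with the stricter filter, and CCNC, DYRK1B, SNRPD2 and CDK10 when some single cows were left out. Leaving out low gain cow 4 and high gain cow 4, in part an alternative chosen after seeing the data, gave Pearson's r of 0.62 for CCNL1 with CCNL2 at biopsy 1, and for CLK1 with CLK4 0.72 at biopsy 1, 0.53 at biopsy 2 and 0.65 for the change, none past the threshold. Leaving out the 2 cows farthest from the median gave 0.49, 0.64, 0.20 and 0.69 in the same order. The causes were not tested.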
